A study of Saccharomyces cerevisiae with 9 samples.

Results

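The genes nearest the chromosome ends of Saccharomyces cerevisiae were examined in MNase-seq data on total histones of WT cells. Genes of this yeast are named by chromosome, arm and a number that counts outward from the centromere. For each chromosome arm, the genes with a number above 20 and within 20 of the highest number of that arm were taken as members. This gave 267 of the 2426 protein-coding genes, and the 2159 other genes serve for comparison. The study asked how RNA polymerase II termination depends on Rtr1, a phosphatase of the polymerase, and used total histone MNase-seq of WT cells as a reference for chromatin along genes. The WT cells were isogenic to BY4741, a laboratory strain of mating type a, and the labels name no treatment. This was 1 of the 9 samples of the series, and the ChIP-exo samples were not analysed here. With 1 sample and no replicate, no test was possible, and all intervals in the text describe the spread over genes only.

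Micrococcal nuclease cuts linker DNA, and sequencing of what nucleosomes protect from it shows where they sit. A typical yeast gene has a nucleosome-depleted region just upstream of its transcription start site (TSS), a strongly positioned +1 nucleosome at the start and a regular array of nucleosomes over the gene body. Yeast telomeres are repeats bound by Rap1, next to the conserved X and Y′ elements. The Sir2, Sir3 and Sir4 proteins spread from there and can silence nearby genes, and the zone further in holds gene families for growth on particular sugars, for iron uptake and for the cell surface. Many of these families have nearly identical copies at several ends, where a short read can match several places equally well.

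The sequences below come from the R64 assembly in RefSeq and show how alike some members of low coverage and their copies are. Likeness over this stretch does not by itself say whether reads could be placed. Each pair gives the first 60 coding bases, 5′ to 3′, of a member with a mean coverage under 3 RPM (reads scaled to sequencing depth) and of the gene that shares most of its sequence with it. Capitals mark the bases that differ within the pair.
PHO12 (chrVIII:552099-552158, plus strand): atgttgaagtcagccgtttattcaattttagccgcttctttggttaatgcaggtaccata
PHO11 (chrI:225460-225519, plus strand): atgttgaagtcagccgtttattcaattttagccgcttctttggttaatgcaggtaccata
COS6 (chrVII:1082670-1082729, minus strand): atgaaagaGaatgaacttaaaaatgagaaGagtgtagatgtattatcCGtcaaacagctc
COS4 (chrVI:6426-6485, plus strand): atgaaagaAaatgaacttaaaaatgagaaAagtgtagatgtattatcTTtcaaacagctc
SSB1 (chrIV:44065-44124, plus strand): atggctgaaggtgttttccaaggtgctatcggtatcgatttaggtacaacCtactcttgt
SSB2 (chrXIV:252059-252118, plus strand): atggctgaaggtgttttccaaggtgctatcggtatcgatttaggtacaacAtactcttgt
RPL8B (chrXII:48570-48629, minus strand): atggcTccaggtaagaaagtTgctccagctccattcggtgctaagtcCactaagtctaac
RPL8A (chrVIII:35966-36025, minus strand): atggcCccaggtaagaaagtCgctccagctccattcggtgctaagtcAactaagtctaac
Over these 60 bases PHO12 and PHO11 had 0 mismatches, COS6 and COS4 had 4, SSB1 and SSB2 had 1, and RPL8B and RPL8A had 3. A further 2 members under 3 RPM, COS8 and YHL050C, had 0 mismatches to COS7 and YPR204W.

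The members lay on all 32 chromosome arms, with 2 to 13 per arm and a median of 9. All 267 members were found in R64, the assembly of the sacCer3 build to which the authors mapped their reads. Their coding sequences began 0.444 to 78.1 kb from the chromosome end, with a median of 36.3 kb. Of the members, 46 were under 20 kb from an end, 112 were at 20 to 40 kb and 109 were over 40 kb. The nearest of the other genes was 47.8 kb from an end, so that all 158 genes of the tables within 40 kb were members. The label therefore fits the positions, with a limit on its reach. R64 holds 246 protein-coding genes within 20 kb of an end, and only 46 of them (18.7%) were in the deposited tables, against 40.4% of all 6002 protein-coding genes. In the 46 present genes a median of 100% of the 50-base stretches (50-mers) occurred once in the genome, against 36.4% in the absent genes. The tables thus hold few of the repeated genes at the very ends.

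The sequencing depth was high for single genes. The step between values, the worth of 1 read, corresponds to 33313664 reads, and 3 reads over a base give 0.0901 RPM. Counting error is therefore small beside the spread over genes. Windows of 31 pairs of members overlapped, which involved 60 members, so that neighbouring members share part of their signal.

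Most members showed the usual pattern of depletion and +1 nucleosome, with a lower +1 peak than other genes. The signal at the depletion was taken as the mean over -125 to -50 nucleotides (nt) from the TSS, and that at the +1 peak as the mean over 0 to 75 nt. The median +1 signal was 8.22 RPM in the members (95% interval 7.96 to 8.54) and 8.83 RPM in the other genes (8.71 to 8.93). The median signal at the depletion was 4.09 RPM in the members (3.82 to 4.40) and 4.42 RPM in the other genes (4.30 to 4.51), an order that turned round when each gene was divided by its own mean. Over the whole window of -500 to 1000 nt, the median was 6.03 RPM in the members (5.92 to 6.17) and 6.33 RPM in the other genes (6.28 to 6.38). The ratio of +1 peak to depletion, each with 0.1 RPM added, had a median of 1.87 in the 260 members over 3 RPM (1.76 to 2.05) and 2.00 in 2144 other genes (1.96 to 2.05).

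The depletion was lower than the +1 peak in 234 of 260 members, beside 91.6% of all genes tested. It was at or above the +1 peak in 26 of 260 members, beside 8.44% of all genes. A ratio of at least 2 was found in 116 of 260 members (44.6%), beside 49.5% of all genes. These shares of members are close to the background. The spacing of nucleosomes in the average profile was 164 nt in the members and 164 nt in the other genes. The +1 peak lay at 33.6 nt in the members and at 29.6 nt in the other genes. In the median profile over genes it lay at 40.9 nt in the members and at 27.6 nt in the other genes, and both differences are below the bin width of 25 nt.

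**Figure D1:**
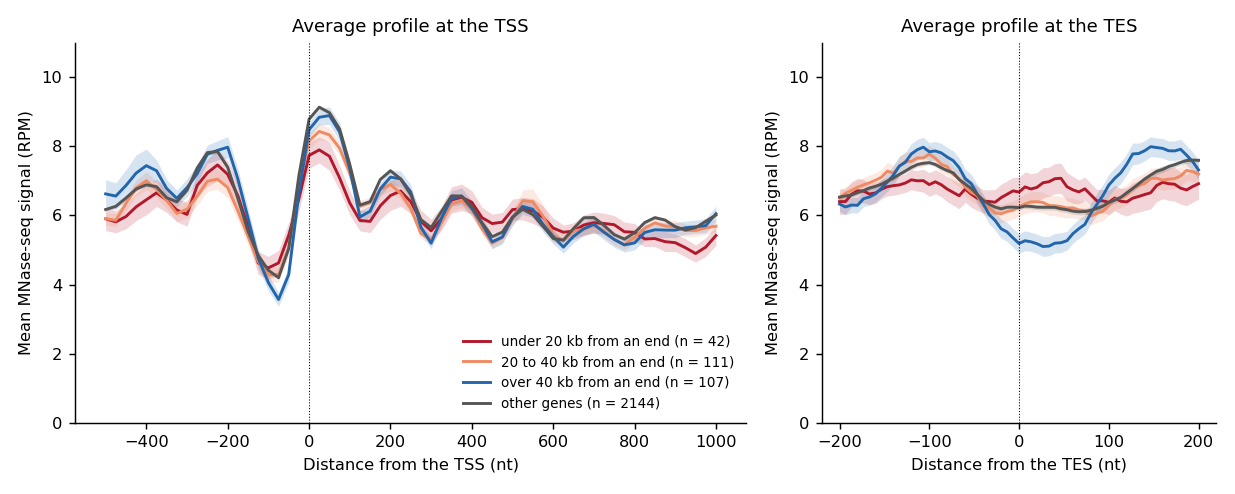
Mean MNase-seq signal in RPM (y axis, from 0) against distance in nt from the TSS (left) and from the transcription end site, TES (right), for members under 20 kb, 20 to 40 kb and over 40 kb from a chromosome end (n = 42, 111 and 107) and for other genes (n = 2144), all over 3 RPM at the TSS; shading is 1 standard error over genes. The +1 peak is lowest under 20 kb, at 7.90 RPM against 9.14 RPM in the other genes, and the dip at the TES is deepest over 40 kb.

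The contrast between depletion and +1 nucleosome was smallest in the members nearest the ends. The median ratio was 1.45 under 20 kb (1.24 to 1.86, n = 42), 1.79 at 20 to 40 kb (1.54 to 2.20, n = 111) and 2.10 over 40 kb (1.87 to 2.44, n = 107). Intervals of the ratio overlapped between neighbouring groups, and those under 20 kb and over 40 kb lay just apart. Over all members, those under 3 RPM included, the median signal at the depletion was 4.92 RPM under 20 kb (3.38 to 5.81, n = 46), 4.28 RPM at 20 to 40 kb (n = 112) and 3.82 RPM over 40 kb (3.58 to 4.19, n = 109), with intervals that overlapped. The median +1 signal was 7.51 RPM under 20 kb (6.33 to 8.07), 8.23 RPM at 20 to 40 kb and 8.72 RPM over 40 kb (8.13 to 9.16). Members of at least 99% unique sequence had a median +1 signal of 7.89 RPM under 20 kb (6.70 to 8.53, n = 37) and 8.81 RPM over 40 kb (8.13 to 9.16, n = 100), so that without the repeated genes these intervals overlapped as well. A ratio of at least 2 was found in 10 of 42 members under 20 kb (23.8%, exact binomial interval 12.1% to 39.5%), beside the 49.5% of all genes. It was found in 44.1% at 20 to 40 kb and in 53.3% over 40 kb (57 of 107). Under 20 kb it was found in 7 of 18 members with a tandem upstream neighbour, on the same strand (38.9%, 17.3% to 64.3%). With a divergent one it was 3 of 24 (12.5%, 2.66% to 32.4%). Their median ratios were 1.40 (1.10 to 3.35) and 1.51 (1.21 to 1.87), and over 40 kb 2.10 and 2.11.

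Finer steps of distance gave the same order near the end. The median ratio was 1.40 within 10 kb (n = 10), 1.51 at 10 to 20 kb (n = 32), 1.77 at 20 to 30 kb (n = 55) and 1.79 at 30 to 40 kb (n = 56). Further in, where members and other genes mix, it was 2.13 at 40 to 60 kb and 2.20 at 60 to 80 kb, and beyond 80 kb it stayed between 1.97 and 2.03. Across the 260 members, distance and ratio had a Spearman correlation of 0.16, and across 2143 other genes it was -0.012. Genes of 1 library that share neighbours are not independent, so these values describe the data only.

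**Figure D2:**
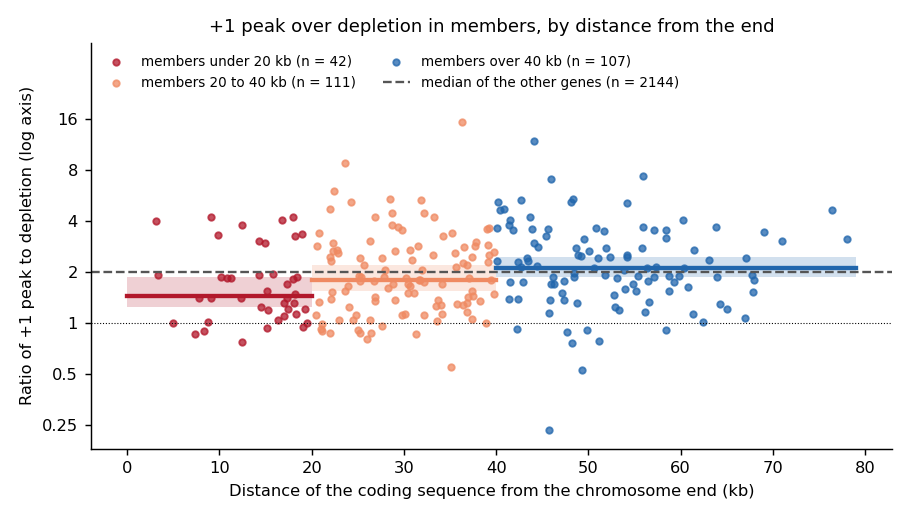
Ratio of +1 peak to depletion (y axis, log scale) for each of the 260 members over 3 RPM against distance of its coding sequence from the chromosome end in kb. Thick lines and shading are group medians and their 95% intervals over genes, the dashed line is the median of 2.00 in the other genes, and the dotted line marks a ratio of 1. The medians are 1.45, 1.79 and 2.10 from the end inwards, with wide scatter in each group.

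The arrangement of genes also moved with distance. The gap between a member and the coding sequence upstream had a median of 906 nt under 20 kb, 506 nt at 20 to 40 kb, 468 nt over 40 kb and 464 nt in the other genes. The GC content of the 250 bases before the start codon had a median of 36.8% under 20 kb, 35.2% at 20 to 40 kb, 35.2% over 40 kb and 34.8% in the other genes. Across the members, the ratio had a Spearman correlation of -0.23 with the upstream gap and of -0.33 with GC (n = 260). Members with a gap of over 500 nt had median ratios of 1.40 under 20 kb (n = 31), 1.65 at 20 to 40 kb (n = 57) and 1.89 over 40 kb (n = 50), and other genes with such a gap had 1.76. Members with a gap of at most 500 nt had 1.84 under 20 kb (n = 11), 2.09 at 20 to 40 kb (n = 54) and 2.32 over 40 kb (n = 57), and other genes with such a gap had 2.24. The medians thus kept the order from the end inwards in both classes of gap, with smaller steps, but the intervals of the distance groups overlapped. Under 20 kb the interval was 1.19 to 1.87 with a gap of over 500 nt and 1.12 to 4.18 with a gap of at most 500 nt. Each held the median of the other genes with such a gap. Members of at most 36% GC had 1.48 under 20 kb (1.12 to 3.30, n = 19), 2.34 at 20 to 40 kb (n = 67) and 2.49 over 40 kb (n = 60). Other genes of such GC had 2.14. Members above 36% had 1.39 under 20 kb (1.19 to 1.91, n = 23), 1.45 at 20 to 40 kb (n = 44) and 1.85 over 40 kb (n = 47). Other genes above 36% had 1.82. These splits were chosen after seeing the data, and the part of gene arrangement and base composition in the difference was not tested.

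Of the 42 members under 20 kb and over 3 RPM, 6 had a depletion at or above the +1 peak (14.3%, 5.43% to 28.5%), beside 8.44% of all genes, which lies within that interval. They included MNT2, a mannosyltransferase that extends O-linked sugars on proteins, with 8.50 RPM at the depletion and 6.55 RPM at the +1 peak. In YMR320W, a gene with no standard name, the values were 6.81 RPM and 5.79 RPM. In MSC1, which encodes a nuclear envelope protein, they were 6.27 RPM and 5.79 RPM. In the fixed window of the depletion, no trough was thus seen at these 3 genes. The other 3 were the iron transporters ARN1, ARN2 and ENB1. A trough elsewhere upstream was not looked for at these genes. Over the whole TSS window the lowest bin had 1.66 RPM in MNT2, 2.84 RPM in MSC1 and 0 RPM in YMR320W. YMR320W had 91.6% unique sequence and 6 bins under 0.5 RPM. Other members at the same distance had a clear trough in the window of the depletion. RPD3, which encodes a histone deacetylase, had 2.30 RPM at the depletion and 9.97 RPM at the +1 peak. ARR1, an activator of arsenic resistance genes, had 0.915 RPM and 4.15 RPM at 9.03 kb. RDS1, a putative zinc cluster transcription factor, had 1.89 RPM and 7.84 RPM at 3.16 kb. Ratios at the ends thus ran from 0.773 in MNT2 to 4.19 in RPD3.

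The outermost member of each arm lay 0.444 to 34.1 kb from the end, with a median of 16.1 kb, and on 23 of 32 arms it lay within 20 kb. The 29 outermost members over 3 RPM had a median of 4.96 RPM at the depletion and 6.97 RPM at the +1 peak, and a median ratio of 1.41. SIR1, which helps to establish silencing at the mating-type loci, was the outermost member of the right arm of chromosome XI at 24.3 kb and had a ratio of 5.19. PDP3, a subunit of a histone acetyltransferase complex, was the outermost on the right arm of chromosome XII and had a ratio of 8.72. Among those with little contrast were IRC7, a cysteine desulphydrase, at 1.00, SAM3, an S-adenosylmethionine permease, at 1.04, and DLD3, a dehydrogenase of D-lactate and 2-hydroxyglutarate, at 1.03. AGP3, an amino acid permease, had 1.10, and FDC1, a decarboxylase of ferulic acid, had 1.12. CHA1, a serine and threonine deaminase, had 1.93, and COS10 had 1.92.

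Chromosome arms differed in their medians. Over the 31 arms with at least 3 members, the median ratio ran from 1.12 on the right arm of chromosome IV (4 members) to 3.75 on the left arm of chromosome XIV (5 members), and in 18 arms it was below the 2.00 of the other genes. The median signal over the TSS window ran from 5.13 RPM on the left arm of chromosome VIII, which holds YHL050C, COS8 and RPL8A, to 7.46 RPM on the left arm of chromosome III. Each arm rests on 3 to 13 genes, so that the order of arms has little precision.

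Members with the highest and lowest ratios were of unique sequence, with 1 exception. RPO26, a subunit shared by all 3 nuclear RNA polymerases, had 0.493 RPM at the depletion, 8.95 RPM at the +1 peak and a ratio of 15.3. DAT1, a protein that binds runs of A and T, had 0.647 RPM, 8.72 RPM and a ratio of 11.8. PTR2, a transporter of small peptides, had 7.14 RPM at the depletion, 3.69 RPM at the +1 peak and a ratio of 0.524. BDH1, a butanediol dehydrogenase, had 7.22 RPM, 3.93 RPM and a ratio of 0.551. The exception is UIP3, with a ratio of 0.232, where both signals were near 0. Runs of A or T (poly(dA:dT)) are known to disfavour nucleosomes, and the longest run in the 250 bases before the start codon is shown for members at both extremes. Each line gives 30 bases of R64, 5′ to 3′ on the plus strand of the chromosome, on which all 4 genes lie, with the run in capitals.
RPO26 (chrXVI:911138-911167): aaaaaaaaaTTTTTTTTTTTTTaagaatat
DAT1 (chrXIII:43858-43887): ttcaacttcTTTTTTTTTTTTTcgtttatg
PTR2 (chrXI:615674-615703): ttatcaattaTTTTTTTTTTTcttcttttg
BDH1 (chrI:35106-35135): caagtcagAAAAAAAAAAAAAAAggaacta
The runs were 13, 13, 11 and 15 bases long and ended 97, 165, 35 and 26 bases before the start codon, in the order printed. A long run was thus present at both extremes. PDP3, with the third highest ratio, had a longest run of 7 bases, 59 bases before the start codon, and UIP3, with the lowest ratio, had one of 11 bases, 138 bases before it, so that neither length nor distance of the run ordered these 6 genes. Shares of genes with a long run depended on the limit. Runs of at least 9 were found in 19.5% of members and 22.4% of all genes, and of at least 13 in 8.99% and 6.80%. A run of at least 10 A or 10 T was found in 16.5% of the members' 250-base stretches (44 of 267) and in 16.5% of all genes' stretches. The median ratio was 2.57 in the 41 members over 3 RPM with such a run and 1.85 in the 219 without one. In the other genes it was 2.43 (n = 350) with such a run and 1.96 (n = 1793) without one.

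Genes of iron uptake, a group often found near chromosome ends, had little contrast. All 10 were over 3 RPM and of these 5 had a depletion at or above the +1 peak, beside 8.44% of all genes. Their median was 6.75 RPM at the depletion and 8.67 RPM at the +1 peak, with a median ratio of 1.01. FIT2, a cell wall protein that retains iron carriers, had 10.3 RPM at the depletion, 8.80 RPM at the +1 peak and a ratio of 0.855. The siderophore transporters ARN2, ARN1 and ENB1 had ratios of 0.890, 0.949 and 0.996. The ferric reductases FRE4, FRE3, FRE2 and FRE6 had ratios of 0.917, 1.03, 1.40 and 2.43. FET5, a multicopper oxidase of the vacuole, had a ratio of 2.49, and FET4, a low-affinity iron transporter, had the highest at 3.30. The trough at FET4 was deep, with 3.13 RPM against 10.5 RPM at its +1 peak, although it lies at 9.89 kb from the end. Only 2 iron genes of the lists were among the other genes, with a median ratio of 1.85, so that function and position cannot be told apart here.

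Genes of sugar use were 5, with a median ratio of 1.21. IMA1, an isomaltase, had 9.37 RPM at the depletion and 8.09 RPM at the +1 peak, and was the only 1 of the 5 with a depletion above its +1 peak. The maltose permease gene MAL31 had 6.93 RPM and 6.97 RPM. The activators MAL13 and MAL33 had ratios of 1.21 and 1.84, and the invertase gene SUC2 had 1.54. The 7 sugar genes among the other genes had a median ratio of 1.12, so low contrast in this list was not limited to the ends. The phosphate transporters PHO90 and PHO84 had ratios of 1.62 and 1.23. AAD10, a putative aryl-alcohol dehydrogenase, had 1.20. The 14 members with no standard name and over 3 RPM had a median ratio of 1.87, beside 1.80 in other genes with no standard name. YJL206C of this list had the highest depletion signal of all members at 10.6 RPM, ahead of FIT2 and of MET5, a sulfite reductase subunit, at 9.60 RPM. No member belonged to the PAU, DAN and TIR, the FLO or the THI, SNO and SNZ lists.

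**Figure D3:**
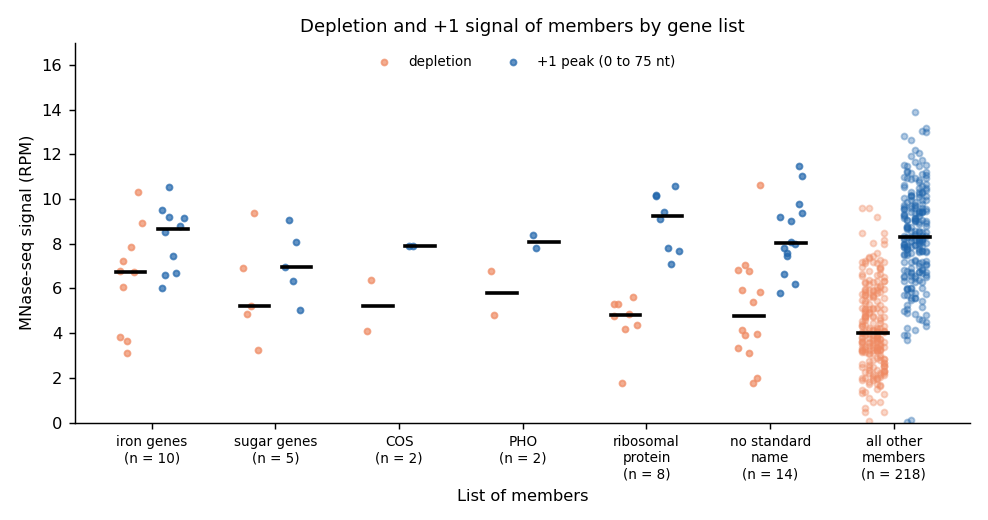
Signal in RPM at the depletion (orange) and at the +1 peak (blue) for each member over 3 RPM, by gene list, with n below each list and medians as black bars; AAD10, alone in its list, is left out. In the iron list the medians are 6.75 RPM at the depletion and 8.67 RPM at the +1 peak, while in the ribosomal protein list they are 4.81 RPM and 9.26 RPM.

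The 10 ribosomal protein genes had a usual promoter and a low gene body. The 8 of them over 3 RPM had a median of 4.81 RPM at the depletion, 9.26 RPM at the +1 peak and a ratio of 1.86. Over the gene body, from 100 to 1000 nt, their median was 3.67 RPM, against 4.59 RPM in 98 ribosomal protein genes among the other genes. This window is fixed, so that in short genes, such as RPL12A, UIP3 and HMRA1, it also takes in sequence past the gene. Most ribosomal proteins of yeast are encoded by a pair of similar genes, and 8 of the 10 had under 99% unique 50-mers. RPS4A had 10.2 RPM at the +1 peak and 1.74 RPM over the gene body, and its copy RPS4B, also a member, had 10.6 RPM and 1.89 RPM. RPS4A shared 34.7% of its coding 50-mers with the other copy, and RPS4B shared 34.3%. How reads of shared stretches were placed is not stated, so that low values there cannot be told apart from unassigned reads.

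The 7 members under 3 RPM made up 2.62% of the members, beside 0.907% of all genes. PHO12, an acid phosphatase, had 0.00295 RPM over the TSS window and was listed at 0 at the depletion and the +1 peak, with 6.96% of 50-mers unique. Its partner PHO11 shared 87.2% of its coding 50-mers. At its TES PHO12 had 4.44 RPM, and 73.9% of the 50-mers around its stop codon were unique. YHL050C, a gene within a Y′ element 0.444 kb from the end, had 0.0600 RPM at the TSS and 0.0108 RPM at the TES, both under the 0.0901 RPM that 3 reads give. It shared 50-mers with 24 genes, most with YPR204W.

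The COS genes, which encode conserved membrane proteins of the subtelomeres, were divided. COS8 had 0.435 RPM at the TSS and 6.14 RPM at the TES, with 62.9% of 50-mers unique around the start codon and 95.5% around the stop codon. COS6 had most of its signal upstream, with 2.55 RPM over -500 to -150 nt, against 0.0965 RPM at the +1 peak and 0.0278 RPM at the TES. In COS6, 100% of 50-mers in the 500 bases before the start codon and 12.5% of those around the stop codon were unique. The other COS members, COS9 and COS10, had 6.75 RPM and 5.60 RPM over the TSS window. SSB1, a ribosome-associated chaperone of the Hsp70 family, had 5.02 RPM upstream, 4.52 RPM at the +1 peak and 0.128 RPM over the gene body. It shared 43.2% of its coding 50-mers with its copy SSB2, which is no member, and its mean was 1.87 RPM, against 2.11 RPM in SSB2. RPL8B and RPL8A, copies of 1 ribosomal protein gene, had 2.55 RPM and 2.92 RPM. Each shared 6.93% of its coding 50-mers with the other, and 96.6% of the 50-mers around each start codon were unique. Each had 20 bins under 0.5 RPM, and the cause of their low signal was not tested. The members just above the limit were SWH1, an oxysterol-binding protein homologue of fully unique sequence, at 3.42 RPM, and RPS4A at 3.51 RPM.

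Low bins were common in genes with repeated sequence, among the members and among the other genes. Under 99% unique 50-mers were found in 22 members (8.24%), beside 7.38% of all genes. Of these 22 members, 21 had at least 1 bin under 0.5 RPM and 7 were under 3 RPM. Of the 245 members with at least 99% unique 50-mers, 21 had such a bin (8.57%) and 0 were under 3 RPM, which allows a share of up to 1.49% by the exact binomial interval. Among the other genes, 127 of 157 with under 99% unique 50-mers had such a bin (80.9%) and 14 were under 3 RPM. With at least 99% it was 158 of 2001 other genes (7.90%), and 1 was under 3 RPM. In all, 42 members (15.7%) had a bin under 0.5 RPM, beside 13.5% of all genes. In the 21 members of unique sequence, 15 of 42 low bins lay within 200 nt upstream of the TSS, the place of the usual depletion, as in RPO26, DAT1 and PDP3. The others lay elsewhere, such as 8 bins of MAL31 between -500 and -325 nt.

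**Figure D4:**
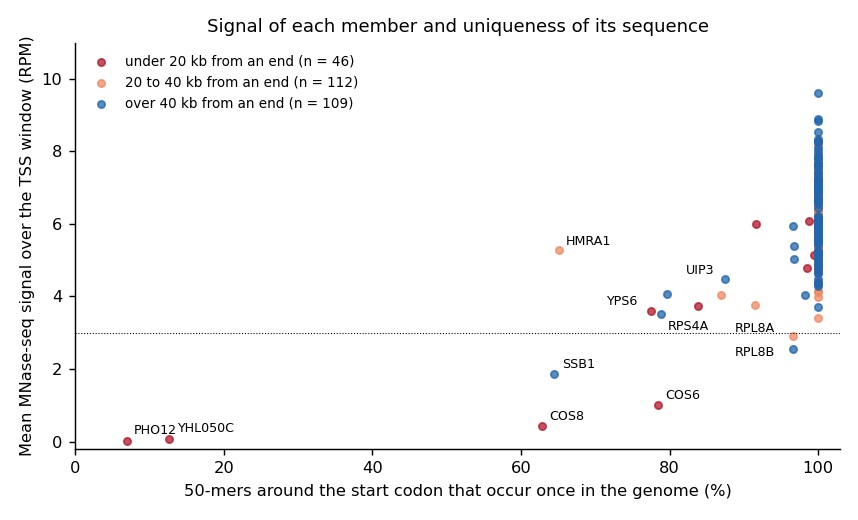
Mean signal over the TSS window in RPM (y axis) against the share of 50-mers around the start codon that occur once in R64 (x axis, %), 1 point per member, coloured by distance from the chromosome end. The dotted line is 3 RPM, and all 7 members under it have less than 99% unique 50-mers.

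Some members over 3 RPM had little or no signal over part of the window. YPS6, an aspartic protease of the cell wall, had 0.0525 RPM at the depletion and 0.113 RPM at the +1 peak but 5.82 RPM over the gene body and 7.84 RPM at the TES. UIP3, a membrane protein of the DUP240 family, had 0.216 RPM upstream, 0.457 RPM at the depletion, 0.0292 RPM at the +1 peak and 7.23 RPM over the gene body. Upstream of their start codons 65.9% and 65.2% of the 50-mers were unique. The ratios of 1.40 and 0.232 in these genes thus compare values near 0. HMRA1, chosen here after its values were seen, is part of the silent mating-type locus HMR. Its signal was listed at 0 over -500 to -150 nt, and was 10.3 RPM at the +1 peak and 6.98 RPM over the gene body. Of the 50-mers in the 500 bases before its start codon, 21.7% were unique. R64 carries the alpha alleles at MAT, so that in cells of mating type a reads from both MATa and HMR match this gene, and the silent and the expressed copy cannot be told apart.

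**Figure D5:**
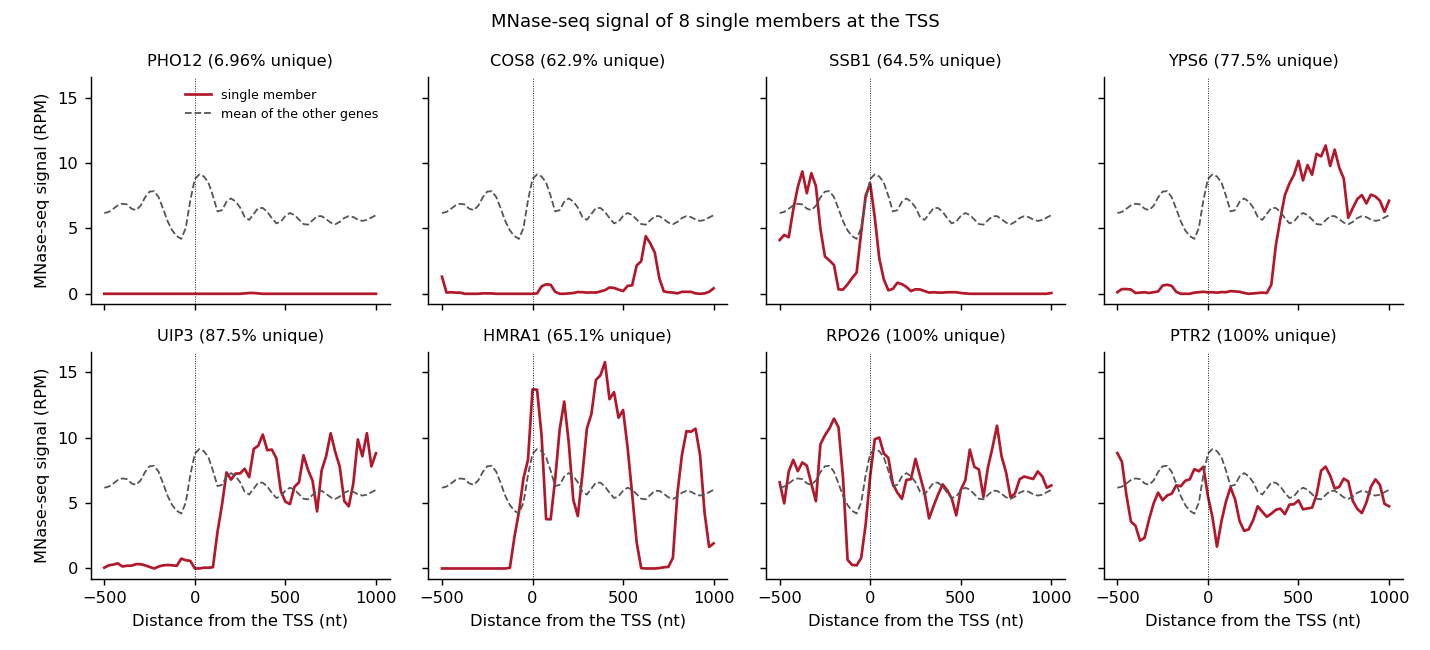
Signal in RPM (y axis) against distance from the TSS in nt for 8 single members (solid), with the mean of the other genes over 3 RPM (dashed) and the share of unique 50-mers in each title. Signal is near 0 over all of PHO12, most of COS8, the body of SSB1 and upstream in YPS6, UIP3 and HMRA1. In the window of the depletion RPO26 has a deep trough and PTR2 has none.

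The members with the highest means differed in where their signal lay. DPB3, a subunit of DNA polymerase epsilon, had the highest mean of the members at 9.61 RPM. This came from its upstream stretch, with 21.6 RPM over -500 to -150 nt and 57.6 RPM at -425 nt, while its +1 signal of 8.22 RPM equalled the median of the members. TTI2, a regulator of telomere length, had 8.90 RPM and IPA1, a factor of pre-mRNA processing, had 8.83 RPM. In IPA1 the signal was 7.98 RPM at the depletion and 10.5 RPM at the +1 peak. The shape of the array downstream of the TSS was compared with the mean profile of the other genes by Pearson correlation over bins. The median was 0.54 in the members (0.52 to 0.58, n = 260) and 0.57 in the other genes (0.562 to 0.595, n = 2144). By distance it was 0.406 under 20 kb (0.315 to 0.534, n = 42), 0.542 at 20 to 40 kb (0.471 to 0.626, n = 111) and 0.580 over 40 kb (0.528 to 0.660, n = 107). The interval under 20 kb lay below that of the other genes and overlapped those of both other groups of members. HMG2, an enzyme of sterol synthesis, the lipase TGL4 and MLP1, a protein of the nuclear pore basket, had the highest values at 0.93 each. Of the lowest, UIP3 at -0.75 and YPS6 at -0.68 belong to genes with little signal at the start, and ARR1 at -0.59 was of unique sequence.

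At the TES the members as a whole were like other genes, with differences by distance. The median signal over 200 nt on each side was 6.73 RPM in the members (6.55 to 6.98) and 6.74 RPM in the other genes (6.67 to 6.81). The mean from -26.7 to 80 nt was below that of the upstream peak, from -140 to -73.3 nt, in 168 of 267 members (62.9%), beside 61.5% of all genes. It was below in 24 of 46 members under 20 kb (52.2%, 36.9% to 67.1%), in 65 of 112 at 20 to 40 kb and in 79 of 109 over 40 kb (72.5%, 63.1% to 80.6%). The ratio of these signals, in members over 3 RPM at the TES, had a median of 0.981 under 20 kb (0.925 to 1.16, n = 43), 0.877 at 20 to 40 kb (0.759 to 1.03), 0.656 over 40 kb (0.600 to 0.858) and 0.869 in the other genes (0.846 to 0.902). The dip was thus deeper in the median over 40 kb than in the other genes, with intervals that overlapped narrowly. The gap to the next coding sequence downstream had a median of 915 nt under 20 kb, 436 nt at 20 to 40 kb, 335 nt over 40 kb and 390 nt in the other genes. The downstream neighbour was convergent for 24 of 46 members under 20 kb, 35 of 112 at 20 to 40 kb, 36 of 109 over 40 kb and 32.1% of other genes. With a tandem neighbour the share with a dip was 52.4% under 20 kb (11 of 21), 63.6% at 20 to 40 kb and 76.7% over 40 kb, against 63.9% in the other genes. With a convergent neighbour it was 54.2% under 20 kb (13 of 24), 45.7% at 20 to 40 kb (16 of 35) and 63.9% over 40 kb (23 of 36), against 56.1% in the other genes, so that the order by distance was not seen in this class.

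Single members ranged widely at the TES. PEX2, a peroxisomal ubiquitin ligase, had 1.20 RPM at the minimum and 7.61 RPM at the upstream peak, a ratio of 0.168. ELO1, an elongase of fatty acids, had 1.82 RPM and 9.69 RPM, and FET5 had 2.21 RPM and 11.1 RPM. Among members over 3 RPM at the TSS the highest ratio was in RPS4A, with 5.78 RPM at the minimum and 1.48 RPM upstream, and 82.4% of the 50-mers around its stop codon were unique. NVJ1, which joins the nucleus to the vacuole, had 9.19 RPM and 3.03 RPM, and ATP1, a subunit of the mitochondrial ATP synthase, had 4.96 RPM at the minimum and a ratio of 2.80. Both were of unique sequence. RPL8A, under 3 RPM at the TSS, had 4.66 RPM at the minimum and 0.800 RPM upstream. PHO12 had 6.42 RPM and 0.0383 RPM, which is under the worth of 3 reads, so no ratio is given.

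Of the genes for silencing itself, SIR1 and SIR3 were members, SIR3 at 55.9 kb from its end. SIR3, chosen here after its values were seen, had 3.24 RPM at the depletion and 12.1 RPM at the +1 peak, a ratio of 3.65. The signal of whole nucleosomes does not carry the marks or the Sir proteins of silent chromatin, so these data do not say which members were silenced.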

How the data were processed

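Total histone MNase-seq of WT cells (1 sample) was analysed. Chromatin was digested with MNase and sequenced by SOLiD chemistry, and the authors aligned the reads to sacCer3 using bfast. The signal deposited is ngs.plot coverage in RPM, for 2426 genes in 101 columns around the TSS and 101 around the TES. Read extension, transcript annotation and treatment of reads with several matches are not given in the sources used here. The study's methods state replicate experiments behind its average plots of RNA polymerase II, and whether the MNase-seq tables pool replicates is not given. Extension and binning widen peaks and fill troughs, and can lower ratios.

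File columns 25 to 85 were used, since the outer 20 on each side repeat the edge value. Bins were 25 nt at the TSS and 6.67 nt at the TES. Genes with a TSS mean under 3 RPM were left out of ratios, correlations and average profiles. Medians of the TES ratio leave out genes under 3 RPM at the TES, and shares at the TES keep all genes. Of 9704 edge values, 9704 were whole multiples of the read step (tolerance 0.001 steps). Positions and neighbours came from the coding sequences of R64, in which 2425 genes matched by name. Uniqueness was counted over 50-mers on both strands, from 500 nt before to 1000 nt after the start codon, since TSS positions were not used here. Intervals are 95% binomial intervals of the median, or exact (Clopper-Pearson) for shares, and they cover the spread over genes only.

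Named are the outermost member of each arm, members under 3 RPM and nearest to that limit, the 3 highest and 3 lowest by each measure and the members of the gene lists. Genes outside this rule are named as such. Members and lists were chosen with earlier results of these data known. The computations were tested on simulated data. All steps ran in Python 3.11.15 with pandas 2.3.3, numpy 2.4.6, matplotlib 3.10.9 and scipy 1.17.1. Alternatives covered the choice of members, low genes, repeated sequence, the scale, the windows and the pseudocount. The splits by neighbour, gap, GC and uniqueness within the distance groups were chosen after seeing the data.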

Additional observations from a re-analysis of the deposited data

How the results depend on the processing

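Of 81 alternatives to 12 results, 69 moved the value by less than its limit, 12 moved it further, and 13 turned the order of members and other genes. The limit was the interval over genes, except for the +1 position and the spacing of the average profile, which have no such interval and were held to a fixed distance. Members within 10 of the highest number had 4.48 RPM at the depletion, against 4.37 RPM in the other genes, and 7.96 RPM at the +1 peak, against 8.83 RPM. Members at most 30 kb from an end had 4.61 RPM at the depletion, 7.91 RPM at the +1 peak, a ratio of 1.68, against 2.00 in the other genes, and a depletion below the +1 peak in 84.5%. After scaling every gene to its mean, the depletion was 4.49 in the members and 4.41 in the other genes, and the spacing was 150.3 nt in the members. The ratio was 2.33 as a mean over genes (2.32 in the other genes) and 1.72 with a pseudocount of 1 RPM (1.83). From the lowest and highest bin of each gene it was 3.59 (3.88). With those bins 100% of members and 99.8% of the other genes had the depletion below the +1 peak. Picking the lowest and highest bin nearly fixes this share in advance, so it says nothing about the members. With distance counted in gene numbers, with limits set after seeing the data, the ratio was 1.62 nearest the end and 2.07 farthest from it. The causes were not tested. No paired analysis was possible because 1 sample was analysed. With 1 library, variation between cultures is unknown, and repeated sequence limits the lowest values.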
